A study of Rattus norvegicus with 63 samples.

Results

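Cytochrome P450 2B6 (CYP2B6) was measured in rat liver by 3 of the 158 analytes of a reverse-phase protein array, named CYP2B6_1, CYP2B6_2 and CYP2B6_3 in the deposited values. All analytes of that symbol were taken, and the appended number tells them apart. An analyte is the signal of a primary antibody on spots of liver lysate, given as a relative fluorescence intensity (RFI). Which antibody a number denotes, and which rat protein it binds, is not given in the sources used here. CYP2B6 is the symbol of a human enzyme. In the RefSeq gene table of the rat assembly GRCr8, 0 genes have this symbol, and it is listed as a synonym of Cyp2b3. That table places 8 genes of the Cyp2b family on chromosome 1, in the order Cyp2b1, Cyp2b2, Cyp2b3, Cyp2b21, Cyp2b14l1, Cyp2b12, Cyp2b14 and Cyp2b15, within a stretch of 11 protein-coding genes. Since antibodies bind with different strength, RFI was compared between animals for each antibody, and between antibodies only as a change.

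CYP2B enzymes sit in the endoplasmic reticulum of hepatocytes, where they oxidise drugs, steroids and other lipophilic compounds with electrons passed on by the cytochrome P450 reductase POR. Their genes are the textbook targets of phenobarbital in rodent liver. Phenobarbital activates the constitutive androstane receptor (CAR), which it does by relieving signalling through the epidermal growth factor receptor, and CAR then binds DNA together with the retinoid X receptor RXRA. The pregnane X receptor (PXR), which is activated by many steroids, shares targets with CAR and is the main regulator of CYP3A enzymes.

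Male Wistar Hanover rats, 8 to 10 weeks old at the start, were dosed by gavage, and 63 livers were profiled. They came from 45 animals given 1 of 15 compounds (3 per compound) and 18 vehicle controls (3 per control set). Animals dosed for 14 days received phenobarbital sodium (PB, no dose in the labels), cyproterone acetate (CPA, 100 mg/kg per day), dehydroepiandrosterone (DHEA, 600), acetamide (AA, 3000), methylcarbamate (Mcarb, 400), ethionine (ETH, 200), cefuroxime (CFX, 250) or nifedipine (Nif, 3). Those dosed for 7 days received thioacetamide (TAA, 19.2), methapyrilene HCl (MPy, 60), dimethylnitrosamine (DMN, 4) or C.I. Direct Black (CIDB, 146), and those dosed for 3 days piperonylbutoxide (PBO, 1200), diethylstilbestrol (DES, 10) or Wy-14643 (Wy, 60). By the labels, PB was referred to methylcellulose (MC) control set 6, PBO, DES and ETH to set 5, CFX and Nif to set 2, and Wy, TAA, MPy, Mcarb, DHEA and AA to set 1. Corn oil (CO) set 3 was the reference of CIDB and DMN and CO set 4 that of CPA. All MC controls were labelled 14 days, so that the controls of 5 compounds (MPy, TAA, Wy, DES and PBO) were not matched for time by the labels, and time and compound cannot be told apart there. The paper's methods describe vehicle controls matched for time, which these labels do not show. The 3 treated animals of a compound had been selected from a larger dose group by their liver histopathology, so the values describe selected animals. Ratios in the series matrix pointed to other MC sets than the labelled ones for some compounds, and values against all controls of the vehicle are therefore given as well.

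Of the cell type markers sought, 5 of 7 hepatocyte proteins and 0 of 10 markers of other liver cells were on the array. The hepatocyte antibodies CYP1A2_1, CYP1A2_2, CYP2E1_1, CYP3A4_1, CYP3A4_2 and HNF4A gave an RFI above 0 in all 63 animals, CYP2E1_2 in 62 and GLUL in 53. In whole liver, fewer hepatocytes and less protein per hepatocyte cannot be told apart. The median RFI of an animal over all analytes ran from 0.425 to 0.882. Relative to the control set, the median change of the 158 analytes on the log2 scale ran from -0.29 in PB to 0.23 in CPA, and values centred by the median of the animal are given where they matter. Arrays have no read depth, and precision is set by 3 animals per group.

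The antibodies differed widely in brightness. CYP2B6_3 was the brightest of the 158 analytes (rank 1), with a median RFI of 70.3 over all animals, while CYP2B6_1 (0.399) and CYP2B6_2 (0.507) ranked 97 and 83. In the 12 MC controls, CYP2B6_1 lay between 0.362 and 0.560 with a median of 0.419, CYP2B6_2 between 0.436 and 0.731 with a median of 0.528, and CYP2B6_3 between 69.8 and 151.9 with a median of 91.6. RFI at or below 0 was found for CYP2B6_1 in animal 1 of Mcarb (-0.116) and for CYP2B6_3 in animal 3 of CO set 4 (-3.58), and both values were left out of the log2 fits. The latter animal also had the lowest median RFI of all 63 (0.425). As a check of the names, deviations from the group mean were compared between the RFI and the log2 values of the series matrix over the treated animals. CYP2B6_3 ranked its own name first among 158 (Spearman's rho 0.950), as did CYP2B6_1 (rho 0.780 over 44 animals). CYP2B6_2 ranked its own name 58th, with a rho of 0.180, and correlated best with PRKAA1 (0.609). Its RFI varied little (0.379 to 0.731 over all animals), which limits this check. The identity of CYP2B6_2 is given only as deposited.

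**Figure D1:**
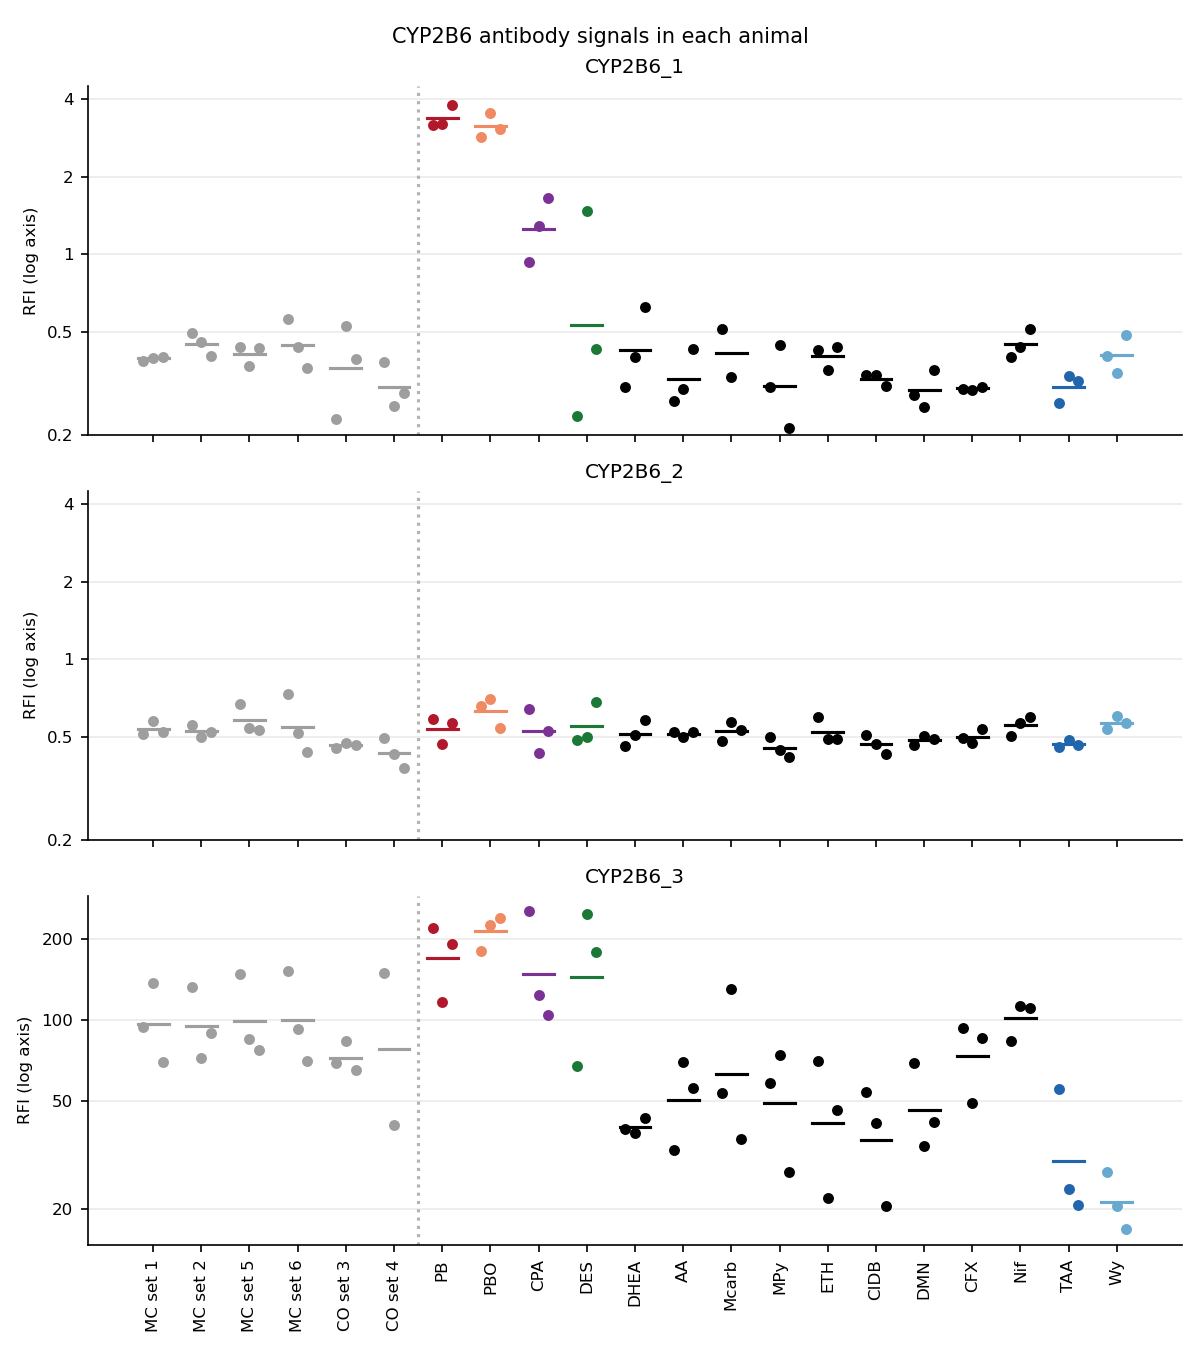
RFI of the 3 CYP2B6 antibodies (log axes; panels have their own scale for CYP2B6_3) in each animal of the 6 control sets (grey, left of the dotted line) and the 15 compounds; bars are geometric means, and the 2 values at or below 0 are not drawn. CYP2B6_1 stood at 0.935 to 3.81 in the PB, PBO and CPA animals, and CYP2B6_2 stayed between 0.379 and 0.731 in all animals. CYP2B6_3 had its lowest group mean in Wy (animals at 16.8 to 27.4), a range that also held animals of TAA, CIDB and ETH.

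CYP2B6_1 rose in PB, PBO and CPA, and in 0 compounds was it called lower. Over all analytes and 15 compounds, 3.16% of comparisons were called (1.43% higher and 1.73% lower), and the groups did not overlap in 16.1%. The share called was 2.53% in DES, 6.33% in both DHEA and PBO, and 4.43% on the higher side in CIDB, and the share without overlap was 3.8% in Mcarb and 5.7% in DMN. In PB the 3 animals had an RFI of 3.17, 3.20 and 3.81, against 0.560, 0.439 and 0.362 in control set 6. Every PB liver was thus far above every control. The log2 fold change was 2.92 (SE 0.33, limma adjusted p 3.88e-09), or 7.57-fold, and 3.33 after centring. In PB, 1.9% of all analytes were called higher, and the groups did not overlap for 19.6%.

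The rise in PBO after 3 days was of the same order. RFI was 2.84, 3.53 and 3.07 in the PBO animals and 0.438, 0.371 and 0.434 in control set 5. This gave a log2 fold change of 2.92 (SE 0.33, limma adjusted p 1.25e-09) and of 2.78 after centring, with 5.06% of all analytes called higher and no overlap between the groups for 21.5%. PB and PBO were the groups with the highest CYP2B6_1 level, and their ranges overlapped.

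In CPA all animals were higher as well. The 3 animals had an RFI of 0.935, 1.29 and 1.66, against 0.383, 0.260 and 0.289 in CO set 4. Here the log2 fold change was 2.04 (SE 0.33, limma adjusted p 1.54e-05), or 4.11-fold, and 1.82 after centring. In CPA 5.06% of all analytes were called higher, and 19% did not overlap. The CPA level followed that of PBO, with no overlap between the 3 animals of each. PBO was given for 3 days and PB and CPA for 14, CPA in another vehicle than PB and PBO, and the PB dose is not in the labels, so the sizes stand side by side only.

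These calls of CYP2B6_1 were kept with other reference animals. Against all MC controls its log2 fold change was 2.99 in PB and 2.88 in PBO, and all 3 animals of each lay above all 12 controls, with a two-sided exact permutation p of 0.0022, the smallest that 455 assignments allow. Against all 6 CO controls it was 1.92 in CPA, where the exact permutation p of 0.0119 was the smallest of 84 assignments. With 3 against 3 animals an exact test cannot go below 0.1. In the series matrix the values were 3.43, 2.94 and 2.18. Over 15 to 17 alternatives with a limma fit, the adjusted p stayed below 0.05 in each, with a range of 4.64e-18 to 4.17e-07 in PB, 1.35e-12 to 4.56e-07 in PBO and 2.58e-06 to 0.0055 in CPA.

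In the other 12 compounds CYP2B6_1 was not called. DES, a synthetic estrogen, came next after CPA in the order of levels. RFI was 0.236, 1.47 and 0.432 in the DES animals against 0.438, 0.371 and 0.434 in control set 5. A single DES liver was thus within the range of the CPA livers, while the lowest was below all 12 MC controls. Its log2 fold change was 0.36 (95% interval -0.31 to 1.03), and -0.37 without animal 2. CYP2B6_3 was also highest in animal 2 of DES (249), as was CYP2C8 (10.2, against 1.80 and 3.13 in the other DES animals).

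For the remaining compounds the log2 fold change of CYP2B6_1 ran from -0.58 in CFX to 0.11 in DHEA. CFX, a cephalosporin antibiotic labelled as a non-carcinogen, had an RFI of 0.302, 0.299 and 0.306, against 0.496, 0.457 and 0.404 in control set 2. The CFX animals lay close together and below all 12 MC controls. The change was not called by limma (log2 fold change -0.58, SE 0.33, adjusted p 0.998), and 6.96% of all analytes did not overlap in this comparison. TAA animals (0.267, 0.339 and 0.323) also lay below all 12 MC controls. So did some animals of AA, DES, DHEA, ETH, MPy, Mcarb and Wy. In all, 16 of the 36 animals treated on MC had CYP2B6_1 below all 12 MC controls, and 8 had it above. No share over all analytes was computed for the 12 controls. Against these 12 controls the two-sided exact permutation p, not adjusted, was 0.0022 for both CFX and TAA, among 45 such tests of 3 antibodies in 15 compounds, while the limma adjusted p was 0.923 and 0.430. Of the 20 neighbours in the order of the 21 group levels, 19 overlapped.

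**Figure D2:**
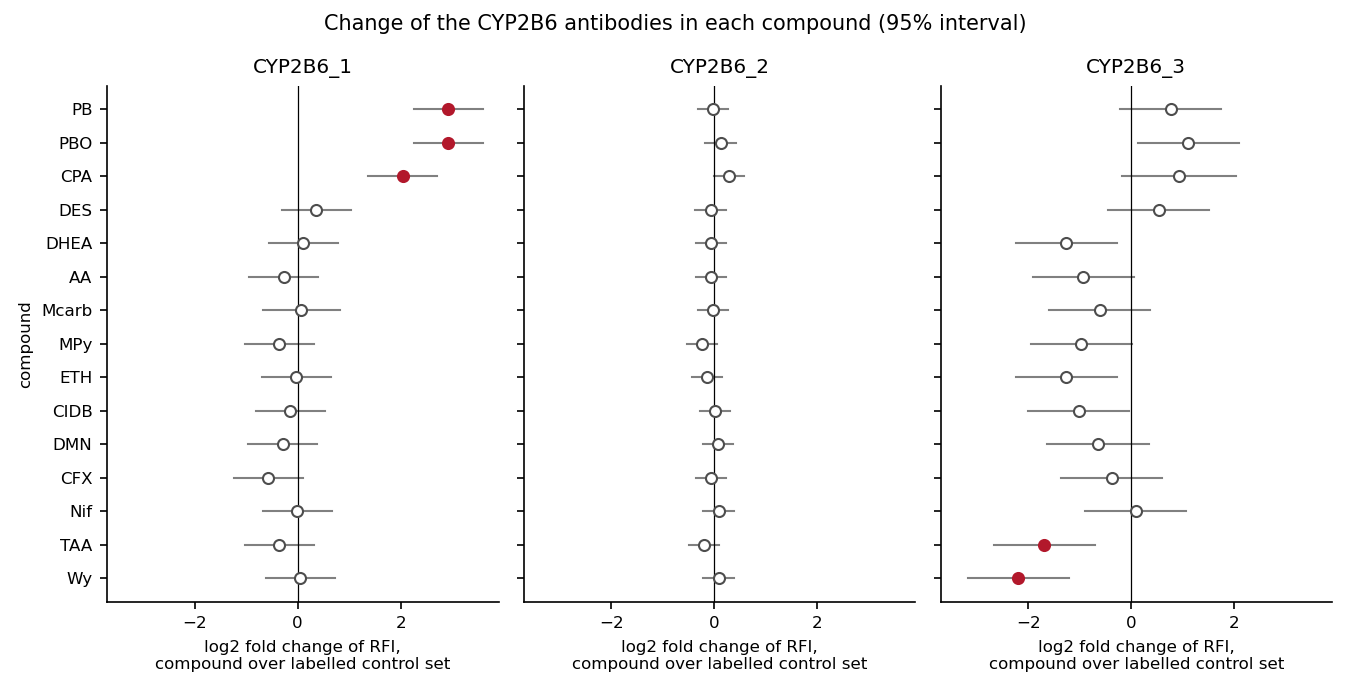
Log2 fold change of RFI (x axis) against the labelled control set for each compound (rows) and antibody (panels), with 95% intervals of the limma fit; filled points had an adjusted p below 0.05. CYP2B6_1 passed in PB, PBO and CPA, CYP2B6_2 in 0 compounds, and CYP2B6_3 in TAA and Wy, on the lower side.

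CYP2B6_2 was called in none of the comparisons. Its RFI stayed between 0.379 and 0.731 over all 63 animals, and limma called it in 0 of 15 compounds, with 0 at an unadjusted p below 0.05 and 0 with eBayes set to a trend and robust shrinkage. Its animals lay below their control set in MPy and TAA, where 20.9% and 25.9% of all analytes did not overlap. In PB the CYP2B6_2 values were 0.588, 0.472 and 0.565, against 0.731, 0.517 and 0.436 in control set 6. In PBO they were 0.658, 0.703 and 0.542 and in CPA 0.644, 0.433 and 0.528. As log2 fold changes these came to -0.02 in PB (95% interval -0.32 to 0.27), 0.12 in PBO (-0.17 to 0.41) and 0.29 in CPA (-0.00 to 0.58). Over all compounds it ran from -0.25 in MPy to 0.29 in CPA, and 0.58 was the highest upper bound of an interval. The PB value became 0.38 (limma adjusted p 0.0098) after centring, the single setting that turned its direction and called it. Within groups, CYP2B6_2 moved with the median RFI of the animal (Pearson's r 0.775 over 63 animals, against 0.384 for CYP2B6_1 and 0.373 for CYP2B6_3).

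CYP2B6_3 fell in Wy and TAA and was called higher in 0 compounds. In Wy-14643, a peroxisome proliferator that activates the nuclear receptor PPARA, RFI was 27.4, 20.5 and 16.8, against 94.1, 136.9 and 69.8 in control set 1. This was the lowest CYP2B6_3 level of all 21 groups, and each Wy animal lay below all 12 MC controls. Its log2 fold change was -2.19 (SE 0.49, limma adjusted p 0.0015), and -2.10 after centring. It stayed below 0.05 in all 16 alternatives fitted with limma, with an adjusted p of 2.47e-05 to 0.0188. In Wy, 7.59% of all analytes were called lower and 27.8% did not overlap.

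In TAA, a hepatotoxic thioamide, RFI was 55.7, 23.7 and 20.6 against the same controls. CYP2B6_3 fell by 1.68 on the log2 scale (SE 0.49, limma adjusted p 0.0431), with 3.16% of all analytes called lower and 25.9% without overlap. All 3 TAA animals were below all 12 MC controls, against which the log2 fold change was -1.70 (adjusted p 0.0033). The call held in 7 of 16 alternatives. It was lost after centring, where the log2 fold change was -1.43 (adjusted p 0.0765), and without any animal of control set 1 or without animal 2 or 3 of TAA, with an adjusted p of up to 0.385 (log2 fold change -1.92 to -1.41). It was also lost with the series matrix values (adjusted p 0.476), in a fit of these animals alone (adjusted p 0.0884) and against control set 2 (adjusted p 0.0538).

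Lower values of CYP2B6_3 that did not pass the test were found in most other compounds. Of the 36 animals treated on MC, 19 had CYP2B6_3 below all 12 MC controls and 7 had it above. No share over all analytes was computed for this count. It was 21 below and 3 above for CYP2C8, and 10 and 10 for CYP3A4_2. For POR it was 3 below and 5 above, and for CCNE2 3 and 3. The 3 animals lay below their control set in CIDB, DHEA and ETH too, where 23.4%, 25.9% and 14.6% of all analytes did not overlap. DHEA, an adrenal steroid, had an RFI of 39.5, 38.2 and 43.2, below all 12 MC controls, with a log2 fold change of -1.26 (SE 0.49, limma adjusted p 0.110). Against all MC controls this was called (-1.28, adjusted p 0.0142), as in 3 of 16 alternatives in all (adjusted p 0.0070 to 0.539). ETH animals had 70.7, 21.9 and 46.3 against 148, 85.4 and 77.5 in control set 5, a log2 fold change of -1.26 (adjusted p 0.220), and -1.23 against all MC controls (adjusted p 0.0441). CIDB animals had 54.3, 41.5 and 20.5, with a log2 fold change of -1.02 (adjusted p 0.262). Over 15 compounds, 6 had an unadjusted p below 0.05 for CYP2B6_3, 10 had a negative log2 fold change and 5 a positive one. Set 1 served 6 of these compounds, so their fold changes share its values.

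In the compounds in which CYP2B6_1 rose, CYP2B6_3 was among its highest levels, but the labelled comparison did not pass in the fit over all groups. PBO animals had an RFI of 181, 226 and 240, all above the 148, 85.4 and 77.5 of control set 5 and above all 12 MC controls. On average the log2 fold change was 1.11 (SE 0.49, 95% interval 0.13 to 2.09, limma adjusted p 0.192), and 1.13 (adjusted p 0.0472) against all MC controls. The PBO change passed in 2 of 16 alternatives, the other being a limma fit of these animals alone (adjusted p 0.0248). PB animals had 220, 116 and 192 against 152, 93.2 and 70.3 in control set 6, which overlap, and a log2 fold change of 0.77 (-0.21 to 1.75, adjusted p 0.273). CPA animals had 253, 124 and 105. CO set 4 had 149.9, 40.8 and -3.58, of which the last was dropped from the fit, and the log2 fold change of 0.93 (-0.17 to 2.03, adjusted p 0.332) rested on the other 2 controls. With the replicate number as a block, it was 1.18 (adjusted p 0.222). In that fit CPA animal 3 had no control of its number left. Leaving out this CPA animal, without a block, also gave 1.18. The labels do not state that same-numbered animals were paired. CYP2B6_3 was higher in the CPA animal for each of the 3 numbers, counting the control at -3.58. Without the block, the log2 fold change was -0.01 without control animal 2 of that set and 1.87 without animal 1. All 20 neighbours in the order of CYP2B6_3 levels overlapped, from PBO at the top to Wy at the bottom.

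The antibodies were then compared within the same lysate, as the log2 ratio of a pair of antibodies in each animal. This test ran over all 11 pairs of unmodified antibodies with a shared symbol, 3 of them of CYP2B6. Over all compounds 12.7% of such differences (21 of 165) were called. The shares of pairs called count the CYP2B6 pairs too. Of the 21 calls, CYP2B6_1 with CYP2B6_2 gave 3, CYP2B6_1 with CYP2B6_3 gave 5 and CYP2B6_2 with CYP2B6_3 gave 3. The log2 fold change of CYP2B6_1 exceeded that of CYP2B6_2 in PB by 2.95 on the log2 scale (SE 0.34, limma adjusted p 5.61e-10), in PBO by 2.80 (adjusted p 1.08e-09) and in CPA by 1.75 (adjusted p 3.39e-05), and in 0 other compounds. The shares of pairs called were 36.4% in PB, 45.5% in PBO and 18.2% in CPA. In these compounds, the difference between CYP2B6_1 and CYP2B6_2 was called in each of the 10 alternatives.

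CYP2B6_1 and CYP2B6_3 changed by different amounts in 5 compounds, in all of them with the higher change for CYP2B6_1. The difference was 2.15 in PB (SE 0.47, limma adjusted p 1.31e-04) and 1.82 in PBO (adjusted p 9.41e-04), where CYP2B6_3 had log2 fold changes of 0.77 and 1.11. It was 2.24 in Wy (adjusted p 1.09e-04), where CYP2B6_3 fell and the CYP2B6_1 values of 0.406, 0.347 and 0.486 overlapped those of the controls (0.387, 0.399 and 0.401). In DHEA (1.37, adjusted p 0.0292) and TAA (1.32, adjusted p 0.0320) the difference passed as well. The share of pairs called was 27.3% in either compound and 18.2% in Wy. The pairs called in Wy (2 of 11) were those of CYP2B6_3 with CYP2B6_1 and with CYP2B6_2. The DHEA and TAA differences were lost without animal 4 or 5 of control set 1 or without animal 2 or 3 of the compound (adjusted p of up to 0.188 in DHEA and 0.243 in TAA over the alternatives). The TAA difference was also lost when TAA and control set 1 were fitted alone. In CPA the difference of 1.07 did not pass (95% interval 0.02 to 2.12, adjusted p 0.171) except without animal 2 of CO set 4 or animal 1 of CPA, nor did it in DES (-0.18, -1.12 to 0.76). CYP2B6_2 and CYP2B6_3 differed in Wy by 2.27 (adjusted p 7.65e-05), in TAA by 1.49 (adjusted p 0.0188) and in DHEA by 1.20 (adjusted p 0.0365). The TAA and DHEA differences were again lost without animal 4 or 5 of control set 1, without animal 2 or 3 of TAA and without any of the DHEA animals. For TAA this difference too was lost in the fit of its own animals and controls alone.

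**Figure D3:**
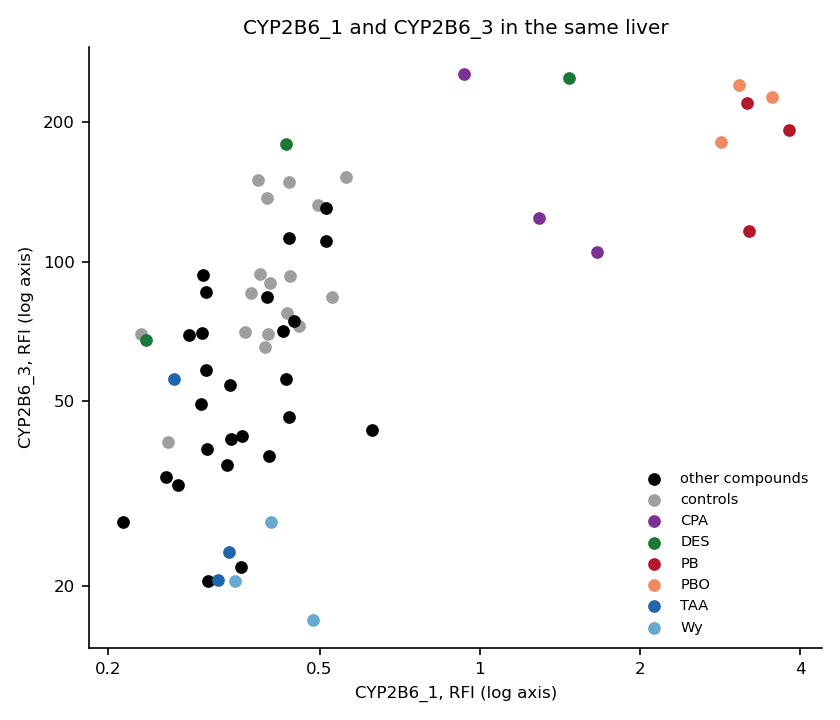
CYP2B6_1 (x axis) and CYP2B6_3 (y axis) RFI on log axes in the same liver, 1 point per animal for the 61 animals with both values above 0. PB and PBO animals are set apart on the x axis (2.84 to 3.81), and 1 DES animal lies near the CPA animals. Wy animals lie at the bottom of the y axis with CYP2B6_1 between 0.347 and 0.486, where animals of TAA, CIDB and ETH reach similar CYP2B6_3 values.

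As a description, the group means of CYP2B6_1 and CYP2B6_3 over all 21 groups had a Pearson's r of 0.687 and a Spearman's rho of 0.666, and an r of 0.463 over the 18 groups without PB, PBO and CPA. Within groups, the deviations of the animals from their group mean had an r of 0.441 over 61 animals, and 0.346 after centring. For CYP2B6_1 and CYP2B6_2 the values were 0.568 over groups and 0.188 within groups (-0.168 after centring), and for CYP2B6_2 and CYP2B6_3 they were 0.459 (0.166 after centring) and 0.511 (0.316 after centring). Spearman's rho over groups was 0.732 and 0.553 for these pairs. Without PB, PBO and CPA their r was 0.768 and 0.274, so that CYP2B6_1 was then more like CYP2B6_2 than CYP2B6_3. After centring, the r over groups was 0.675 for CYP2B6_1 and CYP2B6_3 and 0.579 for CYP2B6_1 and CYP2B6_2. The points share animals, lysates and control sets.

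Livers of vehicle controls gave the background of these comparisons. Between the 7 pairs of control sets with the same vehicle, limma called 0 of the CYP2B6 antibodies, with 0 at an unadjusted p below 0.05, and 0.0904% of all analytes. The largest of these differences on the log2 scale was 0.25 for CYP2B6_1 (CO set 3 over set 4), 0.14 for CYP2B6_2 and 0.11 for CYP2B6_3. The last was between the CO sets, with animal 3 of set 4 (CYP2B6_3 at -3.58) left out. After centring, CYP2B6_2 differed between MC sets 5 and 6 by 0.39 (adjusted p 0.0219).

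The compounds had been chosen by class, as carcinogens with genotoxicity (GC) or without it (NGC) or as non-carcinogens (NC), to find changes that tell the classes apart. With compounds as units, the mean log2 fold change of CYP2B6_1 was 0.72 in 8 NGC (-0.36 to 2.92) and -0.22 in 2 GC (CIDB and DMN). The difference of 0.93 (SE 0.88) did not pass (limma adjusted p 0.937, two-sided exact permutation p 0.489 over 45 assignments), and the NGC range enclosed both GC values. Within NGC, PB and PBO were at 2.92 and the other 6 between -0.36 and 0.36. All 10 carcinogens (0.53) and the 2 NC (-0.29) differed by 0.82 (adjusted p 0.985, exact permutation p 0.439 over 66 assignments). For CYP2B6_2 and CYP2B6_3 the exact permutation p ran from 0.244 to 0.758 in both comparisons. Limma called 1.27% of all analytes between NGC and GC and 0.633% between carcinogens and NC. CPA, TAA and Wy, of undefined class, did not enter.

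Over the 21 group means of log2 RFI, the analytes most like CYP2B6_1 were POR (Pearson's r 0.889), CYP3A4_2 (0.870), an antibody to the CYP3A enzyme of drug oxidation, and CCNE2 (0.856), cyclin E2 of the cell cycle, and the least like it was MAPK3 (-0.554), the kinase ERK1. Without PB, PBO and CPA these r were 0.484, 0.593, 0.615 and -0.179. POR, the electron donor of these enzymes, was called higher in PBO (RFI 37.7, 48.5 and 25.4, log2 fold change 1.49, adjusted p 1.43e-05) and CPA (16.1, 25.1 and 30.8, 1.29, adjusted p 2.77e-04). In PB it had an RFI of 20.3, 23.2 and 32.4 and a log2 fold change of 0.67 (adjusted p 0.0718), and it was called after centring (1.08, adjusted p 0.0025). CCNE2 was called higher in PB by 0.94 (adjusted p 0.0014) and in PBO by 0.76 (adjusted p 0.0118), while in CPA its log2 fold change was 0.37 (adjusted p 0.330).

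CYP3A4_2 took another order than CYP2B6_1 among these compounds. Its RFI was 41.7, 43.3 and 42.9 in CPA, 38.8, 40.0 and 35.6 in PBO, and 9.32, 11.2 and 10.1 in PB, against 1.14, 0.865 and 1.14 in CO set 4 and 1.94, 2.60 and 1.89 in MC set 6. Its log2 fold change was 5.36 in CPA, 5.23 in PBO and 2.26 in PB, each with a limma adjusted p of 5.63e-07 or less. CPA thus had the highest level of CYP3A4_2 and the lowest of CYP2B6_1 among the 3 compounds. The other antibody of that symbol, CYP3A4_1, was not called in them. Its log2 fold change was 0.05 in CPA (limma adjusted p 0.924), -0.15 in PBO (0.757) and -0.54 in PB (0.164). CYP3A4_2 was also called higher in DHEA (1.08) and ETH (1.34), where CYP2B6_1 had log2 fold changes of 0.11 and -0.03, and lower in CIDB (-1.53) and TAA (-1.22), the last of which was lost after centring (adjusted p 0.108).

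CYP2B6_3 was most like CYP2C8 (r 0.881), an enzyme of the CYP2C family that is also a CAR and PXR target, followed by CYP2B6_1 (0.687) and CYP3A4_2 (0.654), and least like the kinase MAP2K1 (-0.563). For CYP2C8 the r was 0.824 without PB, PBO and CPA. CYP2C8 had a log2 fold change of -1.16 in Wy (adjusted p 0.0734) and -1.20 in TAA (adjusted p 0.121), and neither passed. In Wy it passed after centring (adjusted p 0.0370), and against all MC controls it passed in both (adjusted p 0.0042 and 0.0053). It was called higher in CPA (1.77, adjusted p 0.0027), where the control animal with CYP2B6_3 at -3.58 had a CYP2C8 RFI of 0.374 against 1.81 and 1.60 in the other 2, and the call was lost against all 6 CO controls (1.15, adjusted p 0.0534). CYP2B6_2 was most like PPARA_1 (0.869), DVL2 (0.842) and PTPN11 (0.838). The groups share control sets and the shifts of whole animals, and these r carry no test.

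**Figure D4:**
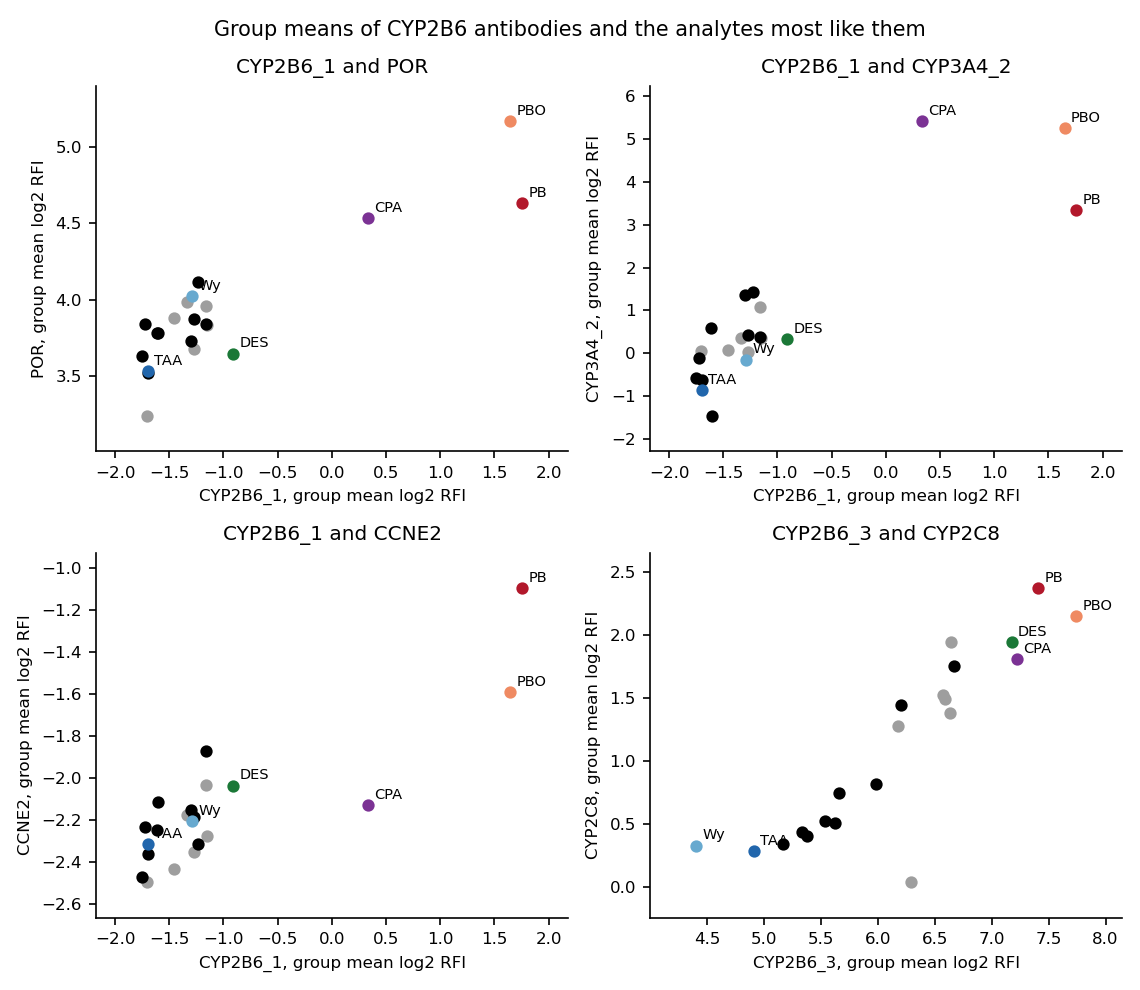
Group means of log2 RFI of CYP2B6_1 against POR, CYP3A4_2 and CCNE2, and of CYP2B6_3 against CYP2C8, 1 point for each of 21 groups (grey, control sets; black, other compounds). In the CYP2B6_1 panels PB, PBO and CPA lie apart from the other 18 groups, whereas the points of CYP2B6_3 and CYP2C8 are spread from Wy and TAA to PB and PBO.

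The other drug-metabolising enzymes on the array comprised 14 analytes. In PBO 3 of 14 were called higher and 0 lower, where 5.06% and 1.27% of all analytes were, with a median log2 fold change of 0.20 against 0.15 over all analytes. They were CYP3A4_2, POR and CYP1A2_1, an enzyme known as a target of the aryl hydrocarbon receptor (log2 fold change 2.47, adjusted p 1.53e-10). The antibody CYP1A2_2 was not called in PBO (0.26, limma adjusted p 0.521). In CPA 3 of 14 were called higher (CYP3A4_2, CYP2C8 and POR), with 5.06% of all analytes and a median of 0.39 against 0.23. In PB 1 of 14 was called higher (CYP3A4_2), with 1.9% of all analytes and a median of -0.33 against -0.29. In Wy, CYP3A5 was called higher (1.52, adjusted p 1.45e-08) and CYP1A2_1 lower (-0.82, adjusted p 0.0310), while CYP1A2_2 was not called (-0.26, limma adjusted p 0.639). Of all analytes, 1.27% were called higher and 7.59% lower in Wy. The median of the 14 was -0.16 there, against -0.10 over all analytes. In TAA 1 of 14 was called lower (CYP3A4_2), with 3.16% of all analytes and a median of -0.22 against -0.16.

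Proteins known upstream of CAR and PXR comprised 16 analytes, among them EGFR, the MAP kinases and their modified forms, the AMP-activated kinase PRKAA1, RXRA and HNF4A. In PB 0 of 16 were called higher and 3 lower, where 1.9% and 3.16% of all analytes were, with a median log2 fold change of -0.23 against -0.29 over all analytes. They were phosphorylated MAPK3 (MAPK3_P-T202/Y204, -0.87), PRKAA1 (-0.83) and the hepatocyte factor HNF4A (-0.59). After centring these were -0.46, -0.42 and -0.18, and against all MC controls -0.61, -0.53 and -0.40. In both settings 0 of the 3 was called. MAPK3 without modification had a log2 fold change of -0.67 in PB (limma adjusted p 0.0956), and PRKAA1_P-T172 had -0.18 (limma adjusted p 0.598). In PBO phosphorylated MAPK3 was called lower (-0.87, adjusted p 0.0160, and -1.02 after centring), as were 1.27% of all analytes, and in CPA 0 of 16 was called. After centring, unmodified MAPK3 was called lower in CPA (-0.89, limma adjusted p 0.0174). Against all CO controls it was not (-0.39, adjusted p 0.460). Phosphorylated MAPK3 was also called lower in Wy (-1.07), where MAP2K1 was called higher (2.21), and in CIDB, DHEA (with MAP2K1 called higher by 2.02) and ETH, where CYP2B6_1 was not called. The share of all analytes called lower was 7.59% in Wy, 3.16% in CIDB, 5.06% in DHEA and 0.633% in ETH, and that called higher was 1.27% in both Wy and DHEA. In TAA 0 of 16 was called. Against all MC controls phosphorylated MAPK3 was called lower in TAA (-0.73, limma adjusted p 0.0082), and after centring it was not (-0.44, adjusted p 0.278). RXRA and the 4 EGFR analytes were called in 0 compounds by limma.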

How the data were processed

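Lysates of 63 rat livers were measured on reverse-phase protein arrays. For each animal the authors deposited fluorescence intensity values (RFI, linear) of 158 analytes. Per the methods, these arose from image analysis with subtraction of local background, an array-wide normalization and weighted averaging of spots. The methods describe a correction for the secondary antibody alone before log2 ratios were formed. Whether the deposited RFI already carries it is not given in the sources used here. The authors also deposited a matrix of log2 ratios to control animals with imputed missing values, used as an alternative. All of its columns had a sample, and its reference animals are not stated per column.

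RFI at or below 0 was set to missing and the rest log2 transformed, with no scaling between animals. A limma 3.58.1 model (lmFit, eBayes; R 4.3.3) with 21 group means over 63 animals compared each compound with its labelled control set. Two-sided p-values were adjusted (Benjamini-Hochberg) over 158 analytes (11 pairs for antibody differences), and called below 0.05. SE and 95% intervals are those of the fit. Replicates are separate animals.

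The members, gene lists and tests were chosen with earlier results of these data known. Named analytes were the CYP2B6 antibodies, for each the 3 most and the 1 least correlated analyte over group means, and listed enzymes and upstream proteins called in PB, PBO, CPA, TAA or Wy. Replicate numbers are shared by CPA and CO set 4 and by PB and MC set 6. Same-numbered CPA and control animals deviated together (r 0.307, 0.219 and 0.159), so the number was fitted as a block in an alternative. The labels do not state that treated and control animals were paired. The fit was tested on simulated data. Figures were drawn with matplotlib 3.10.9.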

Additional observations from a re-analysis of the deposited data

How the results depend on the processing

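CYP2B6_1 was called in 3 compounds under every alternative fitted with limma, also with each of the 63 animals left out in turn. CYP2B6_2 was called in 1 compound in place of 0 after centring (PB, 0.38 in place of -0.02). CYP2B6_3 was called in 5 compounds in place of 2 against all controls of the vehicle and in 1 both for centred values and for the series matrix. With the animals of each comparison fitted alone, CYP2B6_3 was called in 3 (lower in Wy and DHEA, higher in PBO). With an animal left out its count ran from 1 to 2, and it was 1 without animal 4, 5 or 6 of MC set 1 or animal 2 or 3 of TAA. For the pair CYP2B6_1 and CYP2B6_3, the count of 5 ran from 3 to 7 with an animal left out and was 3 without animal 4 or 5 of MC set 1. For CYP2B6_2 and CYP2B6_3, it was 5 in place of 3 against all controls of the vehicle and ran from 1 (without animal 4 or 5 of MC set 1) to 6 (without animal 1 of CO set 4); it was 5 without animal 2 of CO set 4, animal 1 or 2 of DES, animal 2 of Mcarb or animal 1 of TAA. For CYP2B6_1 and CYP2B6_2 it stayed at 3. Between control sets, 1 antibody was called after centring in place of 0. With the replicate block for PB and CPA, the log2 fold change of CYP2B6_1 was 2.92 in PB and 2.04 in CPA and that of CYP2B6_3 in CPA was 1.18 in place of 0.93, and the block changed 0 calls of CYP2B6 antibodies. The value of 1.18 was also that without CPA animal 3, whose same-numbered control had no CYP2B6_3 value above 0. PB animals and set 6 controls of the same number had r of 0.0328, 0.0072 and 0.0685, below the highest r with another number in each case. Class comparisons stayed on the same side of the threshold. The cause of these changes was not tested.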
